A study of Mus musculus with 2 samples.

Results

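The cytosolic ribosomal protein genes were compared between splenic red pulp macrophages of SIRPα-KO mice and of WT mice. The members were all genes whose symbol, found through the accession of each array probe, had the form of a ribosomal protein of the large subunit (Rpl or Rplp and a number) or the small subunit (Rps and a number, and Rpsa). This rule took 77 of the 20642 genes that could be named, 46 of the large subunit and 31 of the small subunit, on 166 of 27206 named probes. All 77 were well above background on at least 1 array, as were 15835 genes in all.

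Red pulp macrophages are the resident phagocytes of the spleen that take up aged red blood cells, and SIRPα is a receptor on these and other myeloid cells that restrains engulfment when it meets CD47. Macrophages of 5 SIRPα-KO mice were mixed into a single pool before RNA extraction, and macrophages of 5 WT mice into another. Both were sorted as F4/80+ CD11b low cells, depleted of globin transcripts, labelled with Cy3 and hybridised to 1 array each. No array was repeated, so no test across samples was possible, no difference below has a replicate check, and the precision of all values is limited by the number of arrays. The sources used here do not give the strain, age or sex of the mice, nor the allele behind the knockout.

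Each cytosolic ribosome joins a small subunit, which reads the mRNA, to a large subunit, which forms the peptide bond. Nearly all ribosomal proteins are present as a single copy per ribosome, and their mRNAs are among the most abundant of most cells. These mRNAs begin with a C followed by a run of pyrimidines, the 5′ terminal oligopyrimidine (TOP) tract, through which mTORC1 and the binding protein LARP1 adjust their translation together.

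RefSeq lists a promoter on GRCm38.p6 for 57 of the 77 members, and the region around the listed start is shown here because a TOP tract would lie there. The windows below run 5′ to 3′ on the strand of the gene, from 10 bases before the listed start to 20 bases from the start on, and capitals mark the longest run of C and T in the window, whether or not it is a TOP tract. Rpl39 (chrX:37085203-37085232, minus strand), Rps21 (chr2:180257369-180257398, plus strand), Rpl14 (chr9:120571507-120571536, plus strand) and Rpl10a (chr17:28328461-28328490, plus strand) had the highest differences, and Rpl5 (chr5:107900518-107900547, plus strand), Rps4x (chrX:102189372-102189401, minus strand), Rps15a (chr7:118116128-118116157, minus strand) and Rpl28 (chr7:4792955-4792984, plus strand) the lowest, among members with a listed promoter.
Rpl39: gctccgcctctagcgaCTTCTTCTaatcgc
Rps21: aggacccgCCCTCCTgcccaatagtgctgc
Rpl14: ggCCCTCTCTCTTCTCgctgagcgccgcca
Rpl10a: gCCCCCCCagcggccgcaaactgcagcgcc
Rpl5: cgtcgCTTgcgtgctggtggtgctacatac
Rps4x: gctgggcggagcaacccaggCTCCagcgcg
Rps15a: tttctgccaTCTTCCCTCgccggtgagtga
Rpl28: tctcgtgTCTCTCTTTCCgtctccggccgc

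A run of at least 8 pyrimidines that starts with C lay within 20 bases of the listed start in 26 of the 57 promoters (45.6%), against 13.6% of all 27025 listed promoters. The listed start is an annotation, and these arrays do not show where transcription began. The motif CCGGAAG, the core that ETS family factors recognise, was found on either strand of 23 promoters of 300 bases (40.4%), against 9.12% of all. AAGATGGCG, the core of the YY1 motif, was in 3 (5.26%) against 1.49%, and TATAAA was in 5 (8.77%) against 14.2%. No overlap between motifs was removed. The median difference between the arrays was 0.42 for the 26 members with the pyrimidine run and 0.36 for the 31 without it, and the printed windows with long runs lie at both ends of the order.

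Before the results, the label and the arrays were checked. Sirpa, the gene that encodes SIRPα, had a scaled signal of 11.3 on the array labelled SIRPα-KO, called the KO-labelled array from here on, and 7.93 on the WT array. A scaled signal is the spot signal divided by the 75th percentile of its array. Its log2 difference was 0.51 ± 0.20. All differences below are likewise the KO-labelled array minus the WT array, and the value after ± is the scanner software's own signal error carried to the log2 difference, which covers the spots and not the mice. The Sirpa signal thus went against the label. The sources used here do not say whether its probe falls inside the deletion, and a probe outside it would check nothing. Each direction below therefore rests on a label that its target gene did not bear out. The arrays also differed as a whole. The 75th percentile lay at a signal of 89.1 on the KO-labelled and 100.2 on the WT array, and the software called 25735 of 39386 probes well above background on the KO-labelled array and 28171 on the WT array. Over all 15835 measured genes the median difference was -0.09, 40.5% had a difference above 0 and 58% below 0. By classes of signal from dim to bright, the medians of the genes lay between -0.11 and -0.03 in the first 8 of 10 classes, at -0.23 in the next and at -0.32 in the brightest. Per the file headers, the arrays shared 1 slide and 1 scan.

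Among markers of the sorted cells, Adgre1, which encodes F4/80, had 117 on the KO-labelled and 68.1 on the WT array, and Spic, the transcription factor that defines red pulp macrophages, had 0.601 on the KO-labelled and 0.535 on the WT array. Over the 13 measured of 15 red pulp macrophage markers 6 were above 0 and 7 below 0, with a median difference of -0.10. C1qc (1.11), Fcgr1 (1.23) and Cd5l (1.46) were at least 2-fold higher, where 3.11% of all measured genes were. C1qa (a bound of -0.76) and Cd163 (-0.57) had the lowest differences. C1qa and Axl, both below 0, passed the filter only through the WT array, so their direction is no support. The summed scaled signal of the list was 209 on the KO-labelled and 147 on the WT array. Markers of other cells in the spleen were measured on both arrays as well. Their summed scaled signals on the KO-labelled array against the WT array were 34.2 against 37.9 for 8 B cell markers, 73.6 against 88.0 for 9 T cell markers, 7.55 against 8.58 for 5 NK cell markers and 28.0 against 36.8 for 7 plasma cell markers. On the KO-labelled array against the WT array they were 151 against 199 for 6 erythroid markers, 442 against 458 for 5 neutrophil markers, 1282 against 809 for 7 dendritic cell markers and 148 against 133 for 6 platelet markers. A single bright probe made up most of many of these sums. On both arrays it was Siglech in the dendritic cell, Ermap in the erythroid, Elane in the neutrophil and Pf4 in the platelet list. Likewise it was Cd4 in the T cell and Prf1 in the NK cell list. On the KO-labelled array only, it was Adgre1 in the red pulp macrophage, Cd22 in the B cell and Xbp1 in the plasma cell list. Single markers within a sum differed more, such as Jchain of plasma cells (-2.78) and Cr2 of B cells (-2.07). Of the defining markers, Mertk, Cd68, Blk, Klrk1, Epb42, Ahsp, Rhag, Ly6g, Mpo and Ngp gave no measured value here. The part of other cells in the results below was not tested, and in a bulk sample fewer cells of a type cannot be told apart from less RNA per cell.

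Most ribosomal protein genes were higher on the KO-labelled array, and most of those in the brightest signal class by a similar modest amount. Of the 77 genes, 60 had a difference above 0, where 40.5% of all measured genes did, and 17 a difference below 0, where 58% did. The median difference was 0.38, with quartiles of 0.06 and 0.55, against -0.09 over all measured genes. The sum of the scaled signals over the members was 3515 on the KO-labelled and 2704 on the WT array, a ratio of 1.30. Beyond the software's error, 53 members were above 0 (25.4% of all measured genes) and 13 below 0 (35.1%), and 11 lay within their error of 0. A distance of at least 2-fold was rare. Of the members, 1 was that much higher, where 3.11% of all measured genes were, and Rpl5, Rps4x and Rpl30 were that much lower, where 5.49% of all were.

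The subunits were also taken apart. The 46 large subunit genes had a median difference of 0.41, with quartiles of 0.19 and 0.55, and 38 were above 0. The 31 small subunit genes had a median of 0.36, with quartiles of -0.02 and 0.53, and 22 were above 0. The medians lay 0.05 apart, and this difference was not tested. Summed scaled signals were 2364 on the KO-labelled and 1755 on the WT array for the large subunit, a ratio of 1.35. For the small subunit they were 1151 on the KO-labelled and 949 on the WT array, a ratio of 1.21. Small subunit genes scattered more around their median, with an SD of 0.56 against 0.49 for the large subunit.

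**Figure D1:**
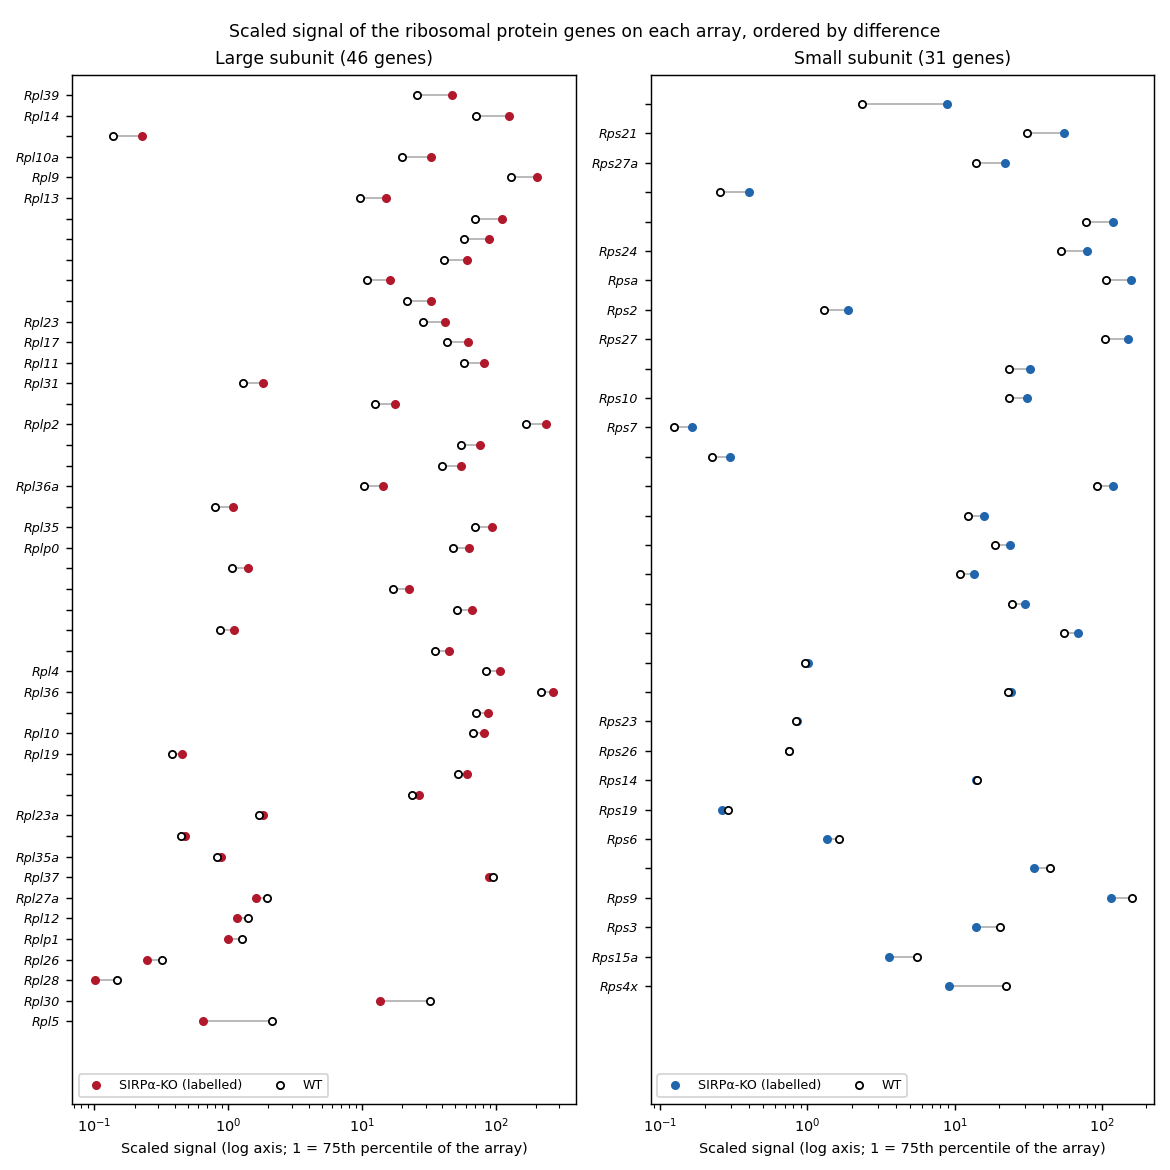
Scaled signal of the 77 ribosomal protein genes (log axis, 1 is the 75th percentile of the array), large subunit left and small subunit right, ordered by difference; filled points are the KO-labelled array, open points the WT array, with 1 array each. The filled point lies right of the open one for 38 of 46 large and 22 of 31 small subunit genes. Names are shown for some genes only.

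The size of these values depended on the scaling of the arrays and on the probe taken for a gene. The median difference of all members came to 0.61 with quantile normalization and to 0.59 in the authors' deposited values, but 0.21 without scaling, where all measured genes had a median of -0.26, and 0.23 when each gene was represented by its dimmest measured probe. Against the 1 and 3 members counted as 2-fold higher and lower, quantile normalization gave 5 and 1, cyclic loess 4 and 3, and the authors' values 5 and 2. Of all 15835 measured genes, 492 and 869 were that far apart as reported. With quantile normalization 678 and 728 were, with cyclic loess 640 and 750, and in the authors' values 650 and 730.

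Compared with genes of like signal, the ribosomal protein genes stood higher, above all in the brightest class. The measured genes were divided into 10 classes by their mean signal, and 51 members fell among the 1583 genes of the brightest class, where they made up 3.22%. In that class all genes had a median difference of -0.32, with quartiles of -0.63 and 0.10, whereas the 51 members had a median of 0.42, with quartiles of 0.30 and 0.57. Of the 51, 44 were above 0, where 28.2% of the class were, and 7 were below 0, where 71.8% of the class were. Rps4x, Rpl30, Rps3, Rps9, Rpl37 and Rps14 were among those below 0. In the class, 1.96% of genes lay 2-fold or more above 0 and 17.6% as far below it, and of the members there none was that much higher and Rps4x and Rpl30 were that much lower. The members' median was reached or exceeded by 235 genes of the class (14.8%), members included.

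Large subunit genes of the brightest class had a median of 0.47 over 31 genes, 29 of them above 0. Small subunit genes of that class had a median of 0.36 over 20 genes, 15 of them above 0. The 26 members of the other 9 classes had a median of 0.10, and 16 were above 0, where 41.8% of the genes of those classes were above 0 and 56.5% below 0. Each member set against the median of its own class gave a median of 0.64 over all members, 0.69 for the large subunit and 0.62 for the small subunit, with 63 of 77 above their class median. By this measure the 51 members of the brightest class had a median of 0.74 and the 26 of the other 9 classes 0.14.

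**Figure D2:**
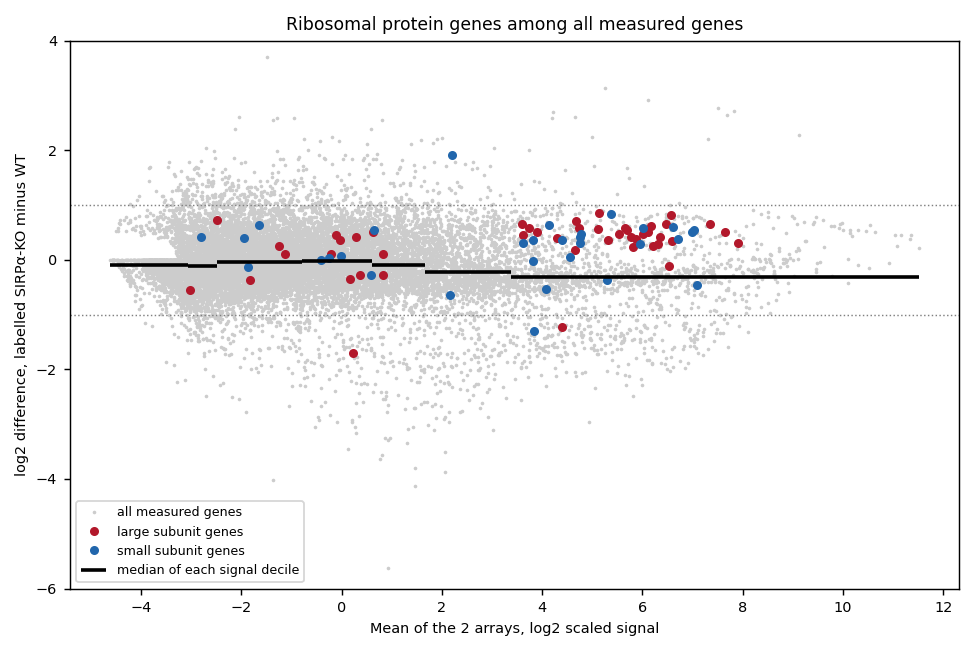
Log2 difference of every measured gene against its mean log2 scaled signal on both arrays; grey points are all 15835 genes, red points large subunit and blue points small subunit genes, black lines the median of each of 10 signal classes and dotted lines a 2-fold distance. Most red and blue points of the brightest class form a narrow band around 0.42, above the class median of -0.32.

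The bright members scattered less than other genes of like signal, the large subunit less than the small. In the brightest class the spread of the 51 members, taken as the interquartile range scaled to an SD, was 0.20, against 0.50 for the other genes there. Of the 51, 39 (76.5%) lay within 0.25 of their median, compared with 40.7% of all genes of the class. The large subunit genes there had a spread of 0.16, with 83.9% within 0.25 of their median, and the small subunit genes a spread of 0.36, with 60.0% within 0.25. The plain SD, which takes in the outlying genes, was 0.44 for the 51 members and 0.74 for the other genes. The software's error of a single difference was 0.20 for each of the 51 members. Being the same for all of them, it acts as a fixed limit and is not a spread measured over these genes. Probes printed several times gave a further yardstick. Over 210 such probes the SD of the difference between spots of 1 probe was 0.16, and 0.07 over the 16 with a scaled signal of 10 or more. Rpl23, a large subunit protein, had a dim probe printed 8 times, with a median scaled signal of 0.201 on the KO-labelled array (lowest 0.185, highest 0.208) and 0.152 on the WT array (lowest 0.126, highest 0.188). The mean of its 8 differences was 0.38 with an SD of 0.23, and its brightest probe differed by 0.55.

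The plain SD over all 77 members was 0.52, against 0.61 over all measured genes. Without the 4 members that were at least 2-fold apart it was 0.36.

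**Figure D3:**
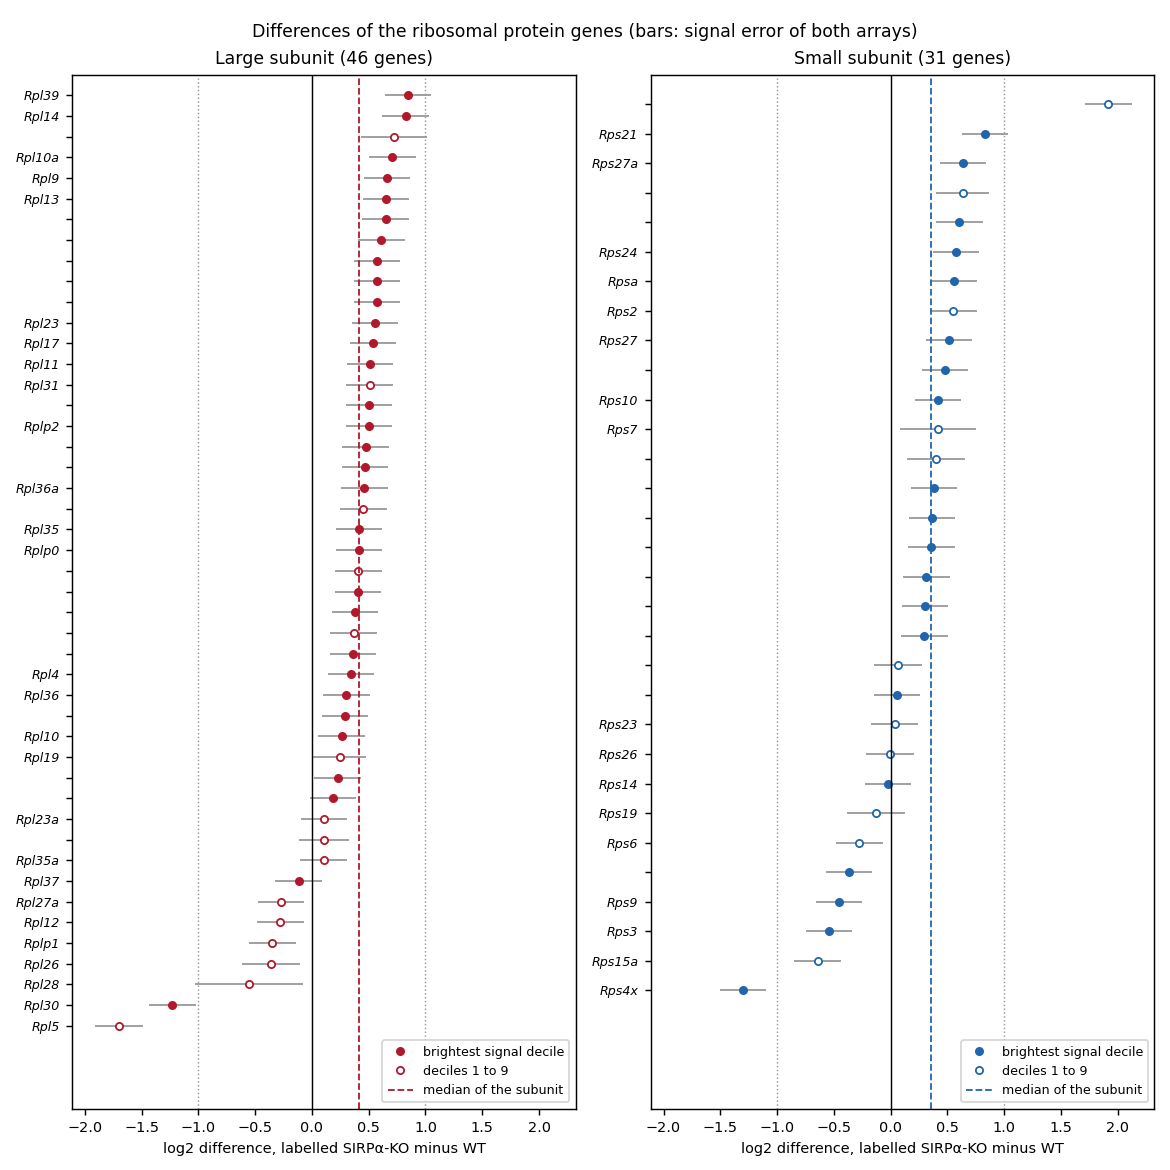
Log2 difference of each of the 77 ribosomal protein genes, large subunit left and small subunit right; bars show the software's signal error carried to the difference, filled points genes of the brightest signal class, open points genes of the other 9 classes, dashed lines the subunit medians of 0.41 and 0.36 and dotted lines a 2-fold distance. Rpl5, Rps4x and Rpl30 lie apart at the low end, and names are shown for some genes only.

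The stalk of the large subunit, which recruits the translation factors that hydrolyse GTP, is built from Rplp0 and the acidic proteins Rplp1 and Rplp2. Rplp0 had 63.5 on the KO-labelled and 47.6 on the WT array (0.41 ± 0.20), and its further probes differed by 0.49 and 0.50. Rplp2 had 237 on the KO-labelled and 167 on the WT array (0.50 ± 0.20) on its only probe. Rplp1, on 1 dim probe, had 0.999 on the KO-labelled and 1.27 on the WT array (-0.35 ± 0.21). Rpl12, which lies at the base of the stalk, had 1.17 on the KO-labelled and 1.42 on the WT array (-0.28 ± 0.21). The bright stalk genes were therefore higher and the dim ones lower on the KO-labelled array.

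Rpl5 and Rpl11 bind 5S rRNA and carry it into the large subunit, and outside the ribosome this particle binds the p53 ligase MDM2. Rpl5 had 0.653 on the KO-labelled and 2.12 on the WT array (-1.70 ± 0.21), the lowest difference of all members, on a single measured probe. Rpl11 had 82.2 on the KO-labelled and 57.6 on the WT array (0.51 ± 0.20), and its further probes differed by 0.58 and 0.62. The 2 partners thus lay on opposite sides of 0. Mdm2 had 1.16 on the KO-labelled and 1.20 on the WT array (-0.05 ± 0.21), and Cdkn1a, the cell cycle inhibitor that p53 induces, had 0.377 on the KO-labelled and 0.455 on the WT array (-0.27 ± 0.23).

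Around the tunnel through which the new peptide leaves lie Rpl4, Rpl17 and Rpl39, with Rpl19, Rpl23a, Rpl26, Rpl31 and Rpl35 at its rim. Of these 8 genes, 7 were above 0, 6 of them by more than their error, shares close to the 60 and 53 of all 77 members. Rpl39, a short protein of the tunnel wall, had 46.8 on the KO-labelled and 26.0 on the WT array (0.85 ± 0.20). Its further probes differed by 0.80 and 1.18, so all 3 probes of Rpl39 gave a high value. Rpl26 had 0.249 on the KO-labelled and 0.319 on the WT array (-0.36 ± 0.26), and its further probes, dimmer still, differed by a bound of -1.05 and by 0.34 ± 0.39, the last within its error.

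Among the other large subunit genes, Rpl14 had 127 on the KO-labelled and 71.5 on the WT array (0.82 ± 0.20). A dim probe of Rpl14 had 0.402 on the KO-labelled and 0.674 on the WT array and so differed by -0.75. Rpl10a, a protein of the mobile L1 stalk, had 32.8 on the KO-labelled and 20.1 on the WT array (0.71 ± 0.20). Rpl9 had 205 on the KO-labelled and 130 on the WT array (0.66 ± 0.20), Rpl13 15.2 on the KO-labelled and 9.69 on the WT array (0.65 ± 0.20), and Rpl36, whose probe was the brightest of the members, 267 on the KO-labelled and 217 on the WT array (0.30 ± 0.20). On these brightest probes the genes were higher on the KO-labelled array by more than their error. A further Rpl36 probe, with 216 on the KO-labelled and 200 on the WT array, differed by 0.11 ± 0.20, within its error. The last Rpl36 probe differed by 0.22 ± 0.20.

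Rpl30 was lower. Its brightest probe had 13.7 on the KO-labelled and 32.2 on the WT array (-1.23 ± 0.20). Its further probes had 3.76 on the KO-labelled and 4.15 on the WT array and 0.511 on the KO-labelled and 0.553 on the WT array, with differences of -0.15 and -0.11 that lay within their errors of 0.20 and 0.22. A distance of 2-fold was thus seen on 1 of 3 Rpl30 probes. Rpl27a had 1.61 on the KO-labelled and 1.95 on the WT array (-0.27 ± 0.20), with further probes at 0.47 and 0.20. Rpl28 was well above background on the WT array only, with 0.149, and had 0.101 on the KO-labelled array, so that it was at least 1.47-fold lower there (-0.55 ± 0.47). It passed the filter only through the array on which it was higher, so its direction is no support, and after normexp background correction its difference was -0.003.

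In the small subunit, Rps3 and Rps2 line the channel through which the mRNA enters, and Rps23 lies at the decoding centre. The brightest Rps3 probe had 14.0 on the KO-labelled and 20.3 on the WT array (-0.54 ± 0.20). Its other probe was of much the same signal, with 14.2 on the KO-labelled and 10.7 on the WT array, and differed by 0.41, so the direction for Rps3 depended on the probe. Rps2 had 1.90 on the KO-labelled and 1.30 on the WT array (0.55 ± 0.21), but its other probe, of similar signal, had 1.21 on the KO-labelled and 1.26 on the WT array and differed by -0.07, a gap beyond their combined error. Rps23 had 0.854 on the KO-labelled and 0.833 on the WT array (0.04 ± 0.21), within its error.

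Rps6 is the substrate of the S6 kinases downstream of mTORC1. It had 1.36 on the KO-labelled and 1.64 on the WT array (-0.28 ± 0.21). Its further probes differed by -0.76 and 0.54, so no direction common to its probes was measured. Rps6kb1, which encodes S6 kinase 1, had 0.670 on the KO-labelled and 0.371 on the WT array (0.85 ± 0.22). Rps6kb2, which encodes S6 kinase 2, had 0.582 on the KO-labelled and 0.684 on the WT array (-0.23 ± 0.21).

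Several small subunit genes were higher by more than their error. Rps21 had 55.5 on the KO-labelled and 31.2 on the WT array (0.83 ± 0.20) on its only measured probe. Rps27a, which is made as a fusion with ubiquitin, had 21.9 on the KO-labelled and 14.0 on the WT array (0.64 ± 0.20). Rpsa, which also serves as a laminin receptor at the cell surface, had 157 on the KO-labelled and 107 on the WT array (0.55 ± 0.20), and Rps27 had 151 on the KO-labelled and 106 on the WT array (0.51 ± 0.20).

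Rps4x, the X-linked form of a protein that has a Y-linked copy in humans but not in mice, had 9.10 on the KO-labelled and 22.4 on the WT array (-1.30 ± 0.20), on 1 measured probe. Rps9 had 116 on the KO-labelled and 159 on the WT array (-0.46 ± 0.20), the only 1 of the 6 members with the brightest probes that was lower. Rps15a had 3.57 on the KO-labelled and 5.57 on the WT array (-0.64 ± 0.20), whereas its other probe had 2.63 on the KO-labelled and 1.83 on the WT array and differed by 0.53. Of these lower small subunit genes, Rps4x and Rps9 had no second measured probe, and Rps15a had one of opposite sign.

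Mutations of several ribosomal protein genes cause Diamond-Blackfan anaemia in humans, in which red cell precursors fail. Among 8 members whose human counterparts are such genes, 5 were above 0 and 3 below 0, beside 60 and 17 of all 77 members. Besides Rpl11 and Rpl5, given above, Rps24 had 79.2 on the KO-labelled and 53.1 on the WT array (0.58 ± 0.20), and Rps10 had 31.1 on the KO-labelled and 23.3 on the WT array (0.42 ± 0.20). Rps7 had 0.165 on the KO-labelled and 0.124 on the WT array (0.42 ± 0.33). Rps19, the gene most often mutated in that disease, had 0.262 on the KO-labelled and 0.287 on the WT array (-0.13 ± 0.25), within its error, as were Rps26 (0.745 on the KO-labelled and 0.749 on the WT array) and Rpl35a (0.889 on the KO-labelled and 0.827 on the WT array).

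The members lie on 19 chromosomes, and the differences were spread over them. Chromosome 7 held the most, with 14 members, of which 8 were above 0 and 6 below 0, where 62.0% of the 1476 measured genes of that chromosome were below 0. The 4 X-linked members were Rps4x, Rpl39, Rpl10 and Rpl36a, and 3 of them were above 0, Rpl10 with 81.7 on the KO-labelled and 68.1 on the WT array and Rpl36a with 14.3 on the KO-labelled and 10.4 on the WT array. All 6 members on chromosome 17 were above 0. Of all measured genes, 54.6% on chromosome X and 59.5% on chromosome 17 were below 0.

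The further probes showed how far a difference depended on the probe. Of the 166 probes 157 were measured, and 48 members had more than 1 measured probe. The brightest probe of a gene was a median of 8.08 times as bright as its dimmest, over 10 times in 23 genes, and 517 times for Rpsa. Probes of unlike brightness gave unlike differences. The 72 probes with a scaled signal of at least 10 had a median difference of 0.46, with quartiles of 0.30 and 0.57, and 64 were above 0. The 34 probes between 1 and 10 had a median of 0.30, and the 51 under 1 a median of 0.10, with 30 above 0. Probes of other genes had medians of -0.32, -0.10 and -0.06 in these classes, in the same order.

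Where both the brightest and the next probe of a gene had a scaled signal of at least 10, which held for 16 genes, the signs agreed in 15, and the gap was within the combined error in 15, with a median gap of 0.07. Rps3 was the exception in both counts. Across these 16 genes, which share the arrays and are no independent replicates, Pearson's r between the probes was 0.58. For 6 genes the brightest probe had at least 10 and the next one under 1, and the signs agreed in 2, with medians of 0.49 and -0.24. Over all 48 genes the signs agreed in 36 and r was 0.38.

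Of the 48 genes with several measured probes, 28 had all of them on 1 side of 0, and of those 26 were above 0 and 2 below. The other 20 had probes on both sides of 0, and in 19 of them the probes of opposite sign lay further apart than their combined error. The probe sequences were not analysed here, and ribosomal protein genes have many processed pseudogenes of nearly the same sequence, so a probe may also take up related transcripts. The part of such transcripts in these values was not tested.

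**Figure D4:**
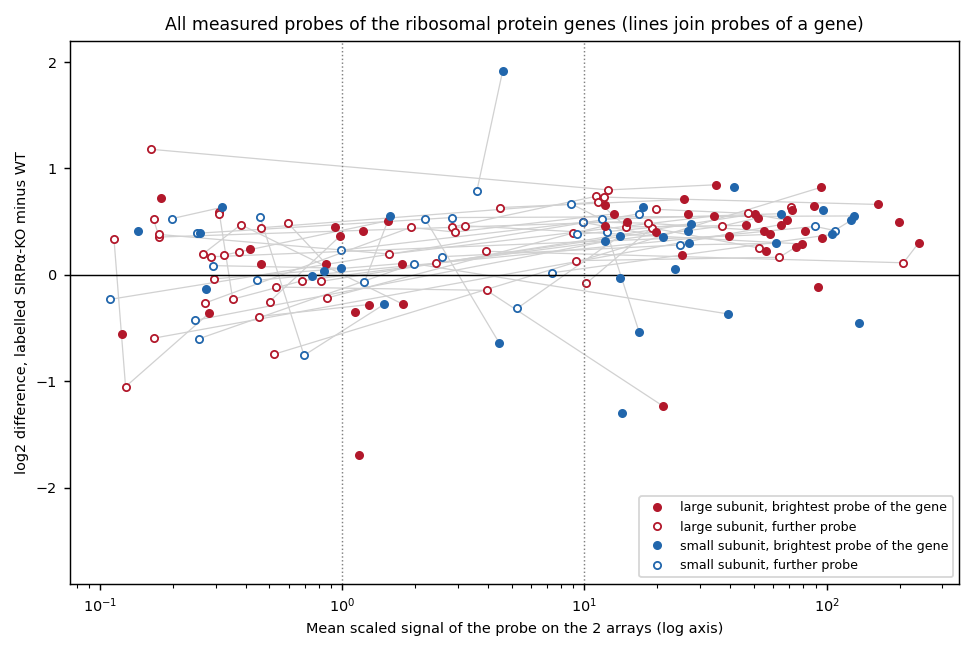
Log2 difference of all 157 measured probes of the ribosomal protein genes against their mean scaled signal on both arrays (log axis); filled points are the brightest probe of each gene, open points its further probes, lines join probes of a gene and dotted lines mark scaled signals of 1 and 10. At 10 or more, 64 of 72 probes lie above 0 with a median of 0.46, and under 1 the points spread to both sides with a median of 0.10.

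Genes that work with the ribosome were set beside its proteins. The proteins of the mitochondrial ribosome, which is built apart from the cytosolic one, had a median difference of 0.27 over 67 genes. Of these, 43 were above 0, where 40.5% of all measured genes were. Their SD was 0.49, and only Mrpl35 (-1.21) was at least 2-fold apart. Proteasome subunits, another large complex of housekeeping proteins, had a median of 0.01 over 30 genes. Psmc1 (-1.29) and Psmb4 (-1.07) were at least 2-fold lower, where 5.49% of all measured genes were. The cytosolic ribosomal proteins thus had the highest median of these 3 complexes. Relative to the signal class of each gene, the medians were 0.64 for the cytosolic ribosome, 0.38 for the mitochondrial ribosome and 0.11 for the proteasome.

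Genes for fusion proteins, the ribosome-bound scaffold Rack1 and the paralogs of ribosomal proteins had a median of 0.36 over 9 genes, 8 of them above 0. Fau, which encodes a ubiquitin-like protein fused to a small subunit protein, had 71.1 on the KO-labelled and 55.2 on the WT array (0.36 ± 0.20). Rack1 had 7.41 on the KO-labelled and 6.61 on the WT array (0.16 ± 0.20), within its error. Rpl3l, a paralog known from muscle, was the gene below 0, with a bound of -0.85.

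The elongation factors, whose mRNAs also carry a TOP tract for the most part, were listed together with Eef2k, the kinase of eEF2. The median was -0.02 over the 7 genes of this list, Eef2k (-0.79) included. Eef1g, a subunit of the exchange factor that reloads eEF1A, had 2.01 on the KO-labelled and 6.50 on the WT array (-1.69 ± 0.20), and Eef2, the translocase, had 1.25 on the KO-labelled and 0.944 on the WT array (0.41 ± 0.21). Over a list of 21 other TOP mRNAs, which holds most of these factors, Fau and Rack1 as well, the median was 0.10. The medians of both lists lay nearer to 0 than that of the ribosomal proteins. Single genes of the elongation factor list lay further from 0, with an SD of 0.72 over the 7, Eef2k included.

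Initiation factors had a median of 0.02 over 29 genes, with Eif3h (0.73) and Eif2b4 (0.71) highest and Eif3i (-0.74) and Eif4h (-0.56) lowest among its genes that both arrays measured above background. Ribosome biogenesis factors, which process rRNA and assemble the subunits in the nucleolus, had a median of -0.04 over 39 genes. Of these, 19 were above 0 and 20 below 0, where 40.5% and 58% of all measured genes were. Among those below 0, Utp15, Wdr75, Gnl3 and Nmd3 passed the filter only through the WT array, so their direction is no support. Dkc1, the pseudouridine synthase of small nucleolar particles, had the highest difference of the biogenesis genes (0.85 ± 0.31). Its probe was dim, with 0.219 on the KO-labelled and 0.121 on the WT array. Ddx56 (-0.57 ± 0.30) and Nle1 (-0.39 ± 0.28) were lowest among the biogenesis genes that both arrays measured above background. The RNA polymerase I machinery, which transcribes rRNA, had a median of 0.44 over 9 mostly dim genes. Of these, Polr1a and Taf1a, above 0, and Polr1e, below 0, passed the filter only through the array on which they were higher. Their directions are no support, though the median includes them. Taf1d was at 0.76 and Polr1b lowest at -0.53 ± 0.38. The bright member Ubtf had 186 on the KO-labelled and 195 on the WT array (-0.07 ± 0.20). In the mTORC1 and S6 kinase pathway the median was 0.09 over 12 genes, 6 of them above 0 and 5 below 0. Eif4e (-0.35 ± 0.24) and Max (-0.26 ± 0.20), which was listed there as the partner of MYC, had the lowest differences of that list. Tsc1, a brake on mTORC1, had 1.73 on the KO-labelled and 0.930 on the WT array (0.90 ± 0.21), and Pdcd4, an inhibitor of translation that S6 kinase 1 marks for degradation, had 167 on the KO-labelled and 98.6 on the WT array (0.76 ± 0.20).

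**Figure D5:**
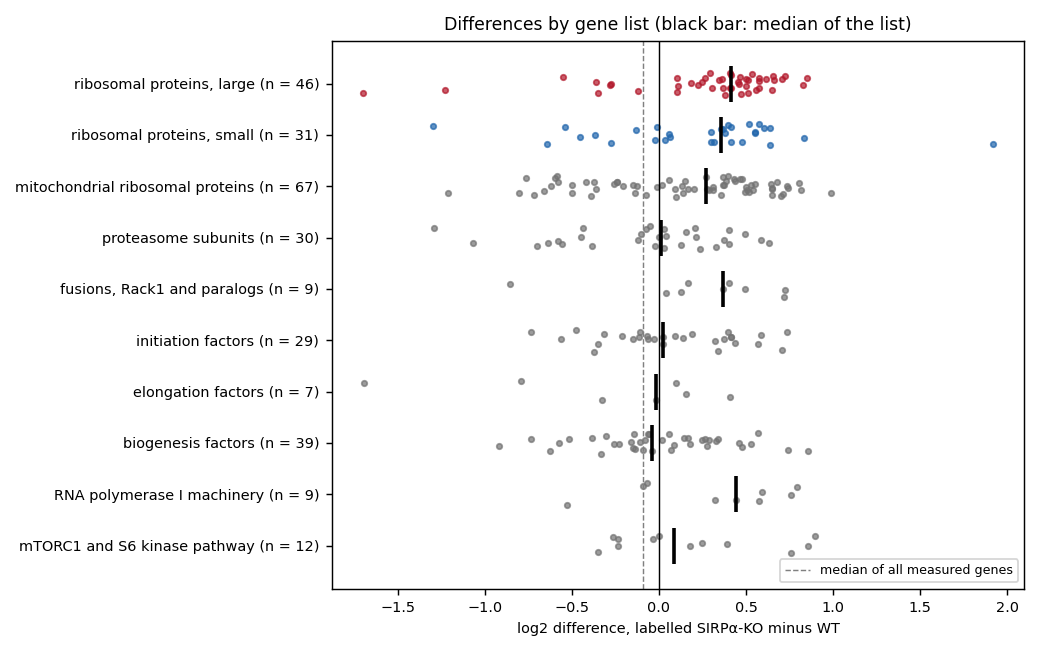
Log2 difference of each gene in the 2 groups of ribosomal proteins and in 8 further lists, 1 point per gene; black bars are list medians and the dashed line the median of all measured genes, -0.09. The medians of the large and small subunit are 0.41 and 0.36. Those of proteasome subunits, initiation factors, elongation factors (with Eef2k) and biogenesis factors lie to the left, between -0.04 and 0.02. The median is 0.44 for RNA polymerase I machinery and 0.36 for fusions, Rack1 and paralogs, lists that include genes measured only through the array on which they were higher. It is 0.27 for mitochondrial ribosomal proteins and 0.09 for the mTORC1 and S6 kinase pathway.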

How the data were processed

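The deposited scanner tables hold linear spot intensity. Per the file headers, Agilent Feature Extraction 11.0.1.1 wrote them for mouse array design 26655 and genome build mm9. The processed signal in them had its background subtracted by that software, per the file headers. The authors' deposited value table is on a log2 scale, with a column median of 4.56 for each array and the same set of values in both columns. With probes ordered by scanner signal, these log2 values of the authors rose or stayed level at 100% of steps, over 25497 probes of the KO-labelled array and 27903 of the WT array, so their direction is settled. The sources used here do not give their normalization or centring; they were used as an alternative.

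Control spots were left out, as were 321 of 43020 non-control spots with an outlier flag on either array. No spot was saturated. Signals were divided by the 75th percentile of the array and taken to log2, and spots of a probe were averaged (Python, numpy 2.4.6, pandas 2.3.3). Probes were named by accession through RefSeq on GRCm38.p6, for names and promoters only. A gene was represented by its brightest probe and counted as measured if the software called that probe well above background on either array. Where 1 array was not, its value was set to the higher of its own and the lowest signal among probes well above background there, which makes the fold a bound. Signal classes are deciles of the mean log2 value over measured genes.

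With 1 array per group, values were compared by fixed sizes, with no test. Alternatives were no scaling, scaling to the median, quantile and cyclic loess normalization and normexp background correction with an offset of 50 (R 4.3.3, limma 3.58.1), the authors' values, other probes for a gene, other filters and other fold limits. The steps were tested on simulated data. The members, the lists and the rule for naming genes were chosen with earlier results of these data known, and the groups by role after the members' values were seen. Named were members at least 2-fold apart, the 8 largest differences each way, the 6 brightest, those not well above background, the stalk genes, Rps6, Rpl5, Rpl11 and members whose probes differ in sign. In the other lists the rule named the 2 largest differences each way and genes at least 2-fold apart. Other genes named were singled out after their values were seen. A few genes taken by this rule are not reported by name; the counts and medians include them.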

Additional observations from a re-analysis of the deposited data

How the results depend on the processing

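No paired analysis was possible because each group had 1 array. Every alternative kept the direction of the medians of all, large and small subunit genes and of the median relative to genes of like signal. The first 3 medians, in that order, were 0.21, 0.24 and 0.19 without scaling, 0.61, 0.66 and 0.61 after quantile normalization, 0.57, 0.60 and 0.53 after cyclic loess, 0.59, 0.64 and 0.56 in the authors' deposited values, and 0.27, 0.29 and 0.26 after normexp on the median spot signal, which was chosen after seeing the data. With the mean of all measured probes they were 0.28, 0.29 and 0.24, and 0.47 relative to genes of like signal. With the dimmest measured probe they were 0.23, 0.29 and 0.17, and 0.44 relative to genes of like signal. The count of members at least 2-fold higher, 1 as reported, was 4 after cyclic loess, 5 after quantile normalization, 5 in the authors' values and, for a limit of 1.5-fold, 13. At 1.5-fold, 1806 of all 15835 measured genes were higher. The count at least 2-fold lower, 3 as reported, was 1 after quantile normalization and 1 for a limit of 3-fold, where 374 of all measured genes were lower. Without the 20 members that have a probe of opposite sign, 11 were below 0, where 58.1% of all genes left were. The cause of these shifts was not tested.

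Of all measured genes at least 2-fold apart, 36.1% were higher as reported. This share was 15.0% with normexp, 20.3% with no scaling, 46.0% with cyclic loess, 47.1% in the values of the authors and 48.2% with quantile normalization. The median of all measured genes, -0.09 as reported, was -0.26 without scaling. Normexp on the mean spot signal and naming by a gene name column were not run, since the tables used here hold neither column. With background-flagged spots left out as well, Rplp2 had no value and Rpl29 was at -0.06. For a scaled signal under 1 the software's median error was 0.24, against 0.20 for 10 or more, and it covers the spots only.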
